A study of Mus musculus with 21 samples.

Results

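A set of 10 genes, called the members, were described: Gpnmb, Spp1, Cst7, Igf1, Csf1, Lgals3, Capg, Ch25h, Lyz2 and Cd83. They were chosen by name, with earlier results of these data known, as secreted and lysosomal genes of disease-associated microglia. Microglia take up this state near amyloid plaques, dying cells and damaged myelin. All 10 were found in both deposited tables, among 18079 genes of the genotype table and 13297 genes of the injection table. Microglia are the resident macrophages of the brain, and apolipoprotein E (ApoE) is a lipid carrier that they take up and, when activated, make themselves. In this state they lower their resting genes and raise genes for lipid uptake, lysosomal breakdown and secretion, in part through the lipid receptor TREM2, for which ApoE is a ligand. Several of the members are also made by other macrophages, by monocytes and by cells of the brain's borders, so a bulk sample can hold their RNA from either source. In bulk RNA, fewer cells of a type and less RNA per cell cannot be told apart.

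RNA of microglia isolated from mouse brain was read as 3′ tags in 21 libraries. The genotype table holds 7 C57BL/6 wild-type libraries (numbered 1 to 4 and 6 to 8) and 4 B6.129P2-Apoetm1Unc/J libraries, whose Apoe gene is disrupted in all cells. Both groups are labelled female and not injected. In the injection table all libraries are labelled male and come from the same knockout strain, 5 given phosphate-buffered saline (PBS) in the left hemisphere and 5 given recombinant APOE protein (rAPOE) in PBS, so both of its groups lack ApoE of their own. Mice were 12 to 18 weeks old, and injected brains were taken 16 h later. Both hemispheres were collected, and neither the hemisphere nor the mouse behind a library is given in the labels. The p-values therefore measure only the spread between libraries, which may be technical. Values are normalised counts, read counts divided by a factor for each library, and levels are not compared between the tables.

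Libraries held 2016972 to 3054976 reads in wild type, 4247865 to 4969287 in the knockout, 704225 to 1347501 after PBS and 857059 to 1119059 after rAPOE. Despite more reads, the knockout libraries detected fewer genes, 8117 to 10479, against 13592 to 15248 in wild type. The level that 3 reads give, taken as the floor below which a 0 cannot be read, was 2.31 to 5.42 in wild-type and 1.30 to 1.70 in knockout libraries. This floor takes account of read counting alone. Low genes could jump between knockout libraries, as Ch25h did with 0, 0, 125 and 35 reads. A 0 in the knockout may therefore stand for a level above this floor. Apoe itself had a median of 14032 in wild-type libraries (lowest 1011, highest 17163) and of 5.11 in knockout libraries (0 to 23.1), and was at most 1.32 after PBS and 8.54 after rAPOE. A 3′ tag reads the end of the transcript and does not show the disrupted part. Wild-type library 8 stood apart: the gene model Gm42418 took 42.1% of its reads, against 15.6% to 19.8% in the other 6, and its Apoe value was the 1011. Sex markers also went against some labels. Reads of Y-linked genes numbered 11 to 36 in each of those 6 libraries and 0 in library 8 and in the knockout females, while PBS library 5 and rAPOE library 5, labelled male, held 0 Y-linked reads and 1521 and 924 reads of Xist. Results are therefore given with and without wild-type library 8, and with and without both libraries numbered 5. The defining resting microglia markers P2ry12 and P2ry13 were read in every library.

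The start regions of 4 members that were lower in the knockout are shown as a description. They do not stand for all members, since each of the 4 holds a match to the letters below and not every member does. They run from 250 bases before to 50 after the annotated start (RefSeq, GRCm38.p6), 5′ to 3′ on the gene's strand. Capitals mark matches, on either strand, to the letters CACGTG (E-box, the core of the lysosomal gene motif) and GAGGAA (core of the macrophage factor PU.1). They also mark an AP-1 like pattern (TGANTCA, with N any base) and an NF-kB like pattern (GGGA and CC with 4 bases of any kind between them). Promoters were found for 9 members, 10 windows in all, since Spp1 has 2. Any window named for a member on a chromosome where no member lies was left out. Of all promoter windows used for comparison, 17.7% came from repeated gene entries.
Gpnmb, chr6:49036268-49036567, plus strand: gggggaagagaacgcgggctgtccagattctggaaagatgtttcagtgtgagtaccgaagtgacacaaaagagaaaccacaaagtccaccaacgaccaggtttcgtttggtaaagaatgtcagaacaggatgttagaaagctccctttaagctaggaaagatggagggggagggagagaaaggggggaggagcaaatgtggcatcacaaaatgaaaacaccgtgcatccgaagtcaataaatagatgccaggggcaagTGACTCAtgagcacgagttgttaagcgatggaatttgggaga
Cst7, chr2:150570165-150570464, plus strand: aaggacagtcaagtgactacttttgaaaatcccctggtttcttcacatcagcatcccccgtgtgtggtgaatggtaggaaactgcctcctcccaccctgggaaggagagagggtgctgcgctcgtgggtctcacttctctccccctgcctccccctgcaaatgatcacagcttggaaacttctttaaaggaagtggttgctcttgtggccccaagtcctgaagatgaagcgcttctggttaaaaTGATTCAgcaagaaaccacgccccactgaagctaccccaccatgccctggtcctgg
Igf1, chr10:87860861-87861160, plus strand: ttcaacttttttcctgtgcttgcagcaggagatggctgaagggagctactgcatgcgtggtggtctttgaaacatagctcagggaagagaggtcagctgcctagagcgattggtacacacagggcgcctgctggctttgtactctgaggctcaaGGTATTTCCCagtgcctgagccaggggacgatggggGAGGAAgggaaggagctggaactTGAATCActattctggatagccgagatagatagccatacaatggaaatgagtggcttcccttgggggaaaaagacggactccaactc
Csf1, chr3:107760420-107760719, minus strand: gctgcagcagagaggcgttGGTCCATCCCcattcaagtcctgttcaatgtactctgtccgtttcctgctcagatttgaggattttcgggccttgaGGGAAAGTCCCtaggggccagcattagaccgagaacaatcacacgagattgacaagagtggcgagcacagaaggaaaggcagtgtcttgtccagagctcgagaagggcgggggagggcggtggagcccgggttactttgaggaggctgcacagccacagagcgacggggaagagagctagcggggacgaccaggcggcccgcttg
The AP-1 like letters were in 3 of the 10 windows, with a different middle base in each: TGACTCA in Gpnmb, TGATTCA in Cst7 and TGAATCA in Igf1. They were in 7.81% of all 32851 promoter windows. NF-kB like letters were in 4 windows (Csf1, Igf1, Lgals3 and Ch25h), against 20.7% of all windows, and overlapped each other in Csf1. PU.1 core letters were in 2 windows (Spp1 and Igf1), against 28.3%, and the E-box was in 0 of 10, against 7.15%. The windows of Capg and Lyz2, members that were also lower in the knockout, held 0 matches. These are matches of letters in short windows, and no binding was measured. Their part in the members' differences between genotypes was not tested. All members are annotated as protein-coding genes (GENCODE M21, GRCm38). The other members lie on the plus strand at chr5:104435118-104441050 (Spp1), chr6:72544391-72562983 (Capg), chr13:43784775-43803132 (Cd83) and chr14:47367751-47386160 (Lgals3), and on the minus strand at chr19:34473778-34475164 (Ch25h).

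In the genotype comparison, 8 of the 10 members were lower in the knockout libraries and none was higher (limma on log2(normalised count + 1), Benjamini-Hochberg adjusted p under 0.05 over 10401 genes). Over all genes tested, 25.0% passed, 19.8% lower and 5.14% higher; the lower share was 26.0% at means of 10 to 50, 15.0% at 50 to 500 and 12.9% at 500 or more. With edgeR and with DESeq2 on recovered reads 8 members passed as lower, against 11.1% and 15.5% of all genes. Ch25h and Cd83 did not pass. The members were chosen with earlier results of these data known. Their shares and medians beside those of all genes are therefore a description, not independent support. The median difference over the members was −4.20, against −0.45 over all genes. Quantile rescaling moved the median of all genes to −0.07, and under it 696 genes were higher and 1330 lower, against 535 and 2061, while 8 members still passed as lower. Without wild-type library 8 the members' median was −4.83, against −0.47, and 8 of 10 passed as lower, against 23.0% of all genes. The knockout libraries were below every wild-type library for 2 members, Csf1 and Capg (10.6% of all genes lay apart in that direction), and below the wild-type libraries other than 8 for 8 members (18.1% of all genes).

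**Figure D1:**
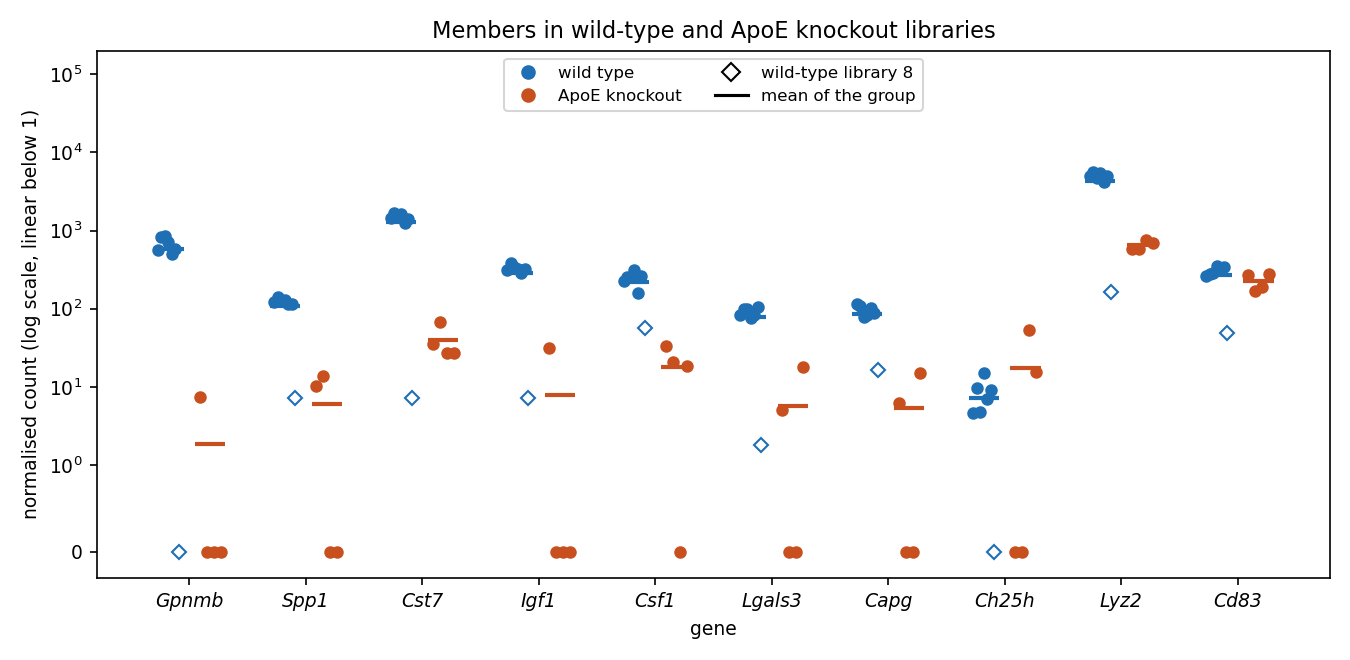
Normalised count (vertical axis, log scale and linear below 1) of each member in the 7 wild-type and 4 knockout libraries; a point is a library, a bar is the mean of its group, and an open diamond is wild-type library 8. For 8 members the knockout points lie below the filled wild-type points, and the diamond lies away from them; Ch25h and Cd83 overlap.

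Gpnmb, a membrane glycoprotein of lysosomes and phagosomes that is also shed from the cell, had the largest fold difference. It was at 566, 827, 862, 705, 502 and 574 in wild-type libraries 1, 2, 3, 4, 6 and 7, at 0 in library 8, and at 7.38, 0, 0 and 0 in the knockout libraries. Wild type averaged 577 ± 288 (SD, n = 7), and the knockout averaged 1.84 ± 3.69 (SD, n = 4), from 13 reads in 1 knockout library. Library 8 fell among the knockout values, and the other wild-type libraries were far above them. Gpnmb was 313-fold lower in the knockout. Its difference in log2(normalised count + 1), the scale of all differences given here, was −7.26 (SE 1.54, limma adjusted p = 0.00341), and −8.60 without library 8 (SE 0.56, limma adjusted p = 5.43e-07).

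Cst7 encodes cystatin F, an inhibitor of lysosomal cysteine proteases. Wild-type libraries other than 8 held 1429, 1672, 1528, 1628, 1232 and 1416, library 8 held 7.22, and the knockout libraries 35.2, 68.1, 26.8 and 27.0. Unlike Gpnmb, Cst7 was read in every knockout library, at a mean of 39.3 ± 19.6 (SD, n = 4) from 338 reads. Library 8 was below all of them. Cst7 fell by 4.24 (SE 1.17, limma adjusted p = 0.0167) with all libraries and fell by 5.31 (SE 0.23, limma adjusted p = 2.60e-08) without library 8, where the fold was 37.8. Of the proteases that cystatin F can inhibit, Ctsc was higher in the knockout, at 911 ± 119 (SD, n = 4) against 688 ± 16.4 (SD, n = 7), by 0.40 (SE 0.12, limma adjusted p = 0.0214). Ctsc was chosen after its values were seen, and its values do not speak for the other proteases.

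Lyz2 encodes the lysozyme of macrophages, a secreted and lysosomal enzyme that breaks bacterial walls. Lyz2 was at 4945, 5545, 4710, 5516, 4192 and 4946 in wild-type libraries other than 8, and at 587, 589, 756 and 685 in the knockout. Library 8, at 164, was lower than any knockout library. Lyz2 fell by 2.23 (SE 0.76, limma adjusted p = 0.0462; exact two-sided permutation p = 0.0606 over 330 splits). Leaving out any 1 library other than wild-type library 8 took Lyz2 over the threshold, up to an adjusted p of 0.0910. Without library 8 it fell by 2.93 (SE 0.10, limma adjusted p = 2.54e-09) and the mean was 7.61-fold lower.

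The neighbouring copy Lyz1, the lysozyme of the gut, lies next to Lyz2 on the minus strand of chromosome 10 (Lyz1 at 117287797 to 117292868, Lyz2 at 117277331 to 117282321, GRCm38). Their main transcripts were identical at 92% of aligned bases, and at 93.8% over the last 300 bases, where 3′ tags fall, so tags may be shared between them. Lyz1 had 66.4 to 114 in wild-type libraries other than 8, 0 in library 8, and 1 read in all in the knockout libraries. It fell by 5.42 (SE 1.11, limma adjusted p = 0.00275).

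Igf1, insulin-like growth factor 1, is secreted by macrophages and supports neurons and myelin. Wild-type libraries 1, 2, 3, 4, 6 and 7 held 317, 379, 341, 324, 290 and 324, and library 8 held 7.22. In the knockout it was at 31.8 in library 1, from 56 reads, and at 0 in the other 3. Igf1 fell by 6.34 (SE 1.14, limma adjusted p = 0.00101), and fell by 7.10 without library 8 (SE 0.86). Its relative Igf2 was lower in the knockout, at 9.16 ± 11.4 (SD, n = 4) against 651 ± 132 (SD, n = 7), a difference of −7.21 (SE 0.74, limma adjusted p = 1.26e-05). The scavenging receptor Igf2r was at a mean of 51.8 in wild type and at 0 in all 4 knockout libraries (−5.66, SE 0.52, limma adjusted p = 5.04e-06). The insulin-like growth factor binding proteins Igfbp2 (−6.77, SE 1.01, limma adjusted p = 0.000213) and Igfbp7 (−4.35, SE 0.73) were also lower. The signalling receptor Igf1r did not pass (−0.44, SE 0.26, limma adjusted p = 0.238). In wild-type library 8, Igf2 and Igfbp2 were at 417 and 370, far nearer to the other wild-type libraries than Igf1 was.

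Csf1, the growth factor that keeps microglia alive through the receptor Csf1r, was 1 of the 2 members whose groups did not overlap with all libraries. Wild-type libraries other than 8 held 225, 256, 253, 311, 160 and 260, library 8 held 56.0, and the knockout libraries 32.9, 20.5, 0 and 18.6. It fell by 4.16 (SE 0.79, limma adjusted p = 0.00148; exact two-sided permutation p = 0.00303 over 330 splits, the smallest possible). Csf1r itself was at 7962 in wild type and 6797 in the knockout and did not pass (−0.22, SE 0.14, limma adjusted p = 0.244).

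Spp1, osteopontin, is a secreted phosphoprotein of matrix and activated macrophages that binds integrins and CD44. It varied least among the members in wild type, at 122, 141, 126, 130, 115 and 116 in the libraries other than 8, a coefficient of variation of 7.72%. Library 8 held 7.22, and the knockout libraries 10.2, 13.8, 0 and 0. Spp1 fell by 4.57 (SE 0.95, limma adjusted p = 0.00294) and was 20.8-fold lower without library 8. Cd44 was at 87.1 and 56.4 and did not pass (−0.99, SE 1.10, limma adjusted p = 0.536).

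Lgals3, galectin-3, a secreted lectin that also binds damaged lysosomes, and Capg, a protein that caps actin filaments in macrophages, both fell in the knockout. Lgals3 was at 82.4, 97.8, 99.7, 75.3, 83.8 and 104 in wild-type libraries other than 8, at 1.81 in library 8, and at 5.11, 0, 0 and 17.7 in the knockout. Capg was at 115, 109, 78.1, 82.2, 104 and 88.8, at 16.2 in library 8, and at 6.24, 0, 0 and 15.1 in the knockout. Both were at 0 in knockout libraries 2 and 3, and highest in library 4. Lgals3 fell by 4.08 (SE 1.07, limma adjusted p = 0.0125) and Capg fell by 4.52 (SE 0.82, limma adjusted p = 0.00104). Galectin-1 (Lgals1) was at 143 in wild type and 8.01 in the knockout (−5.10, SE 0.87, limma adjusted p = 0.000643).

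**Figure D2:**
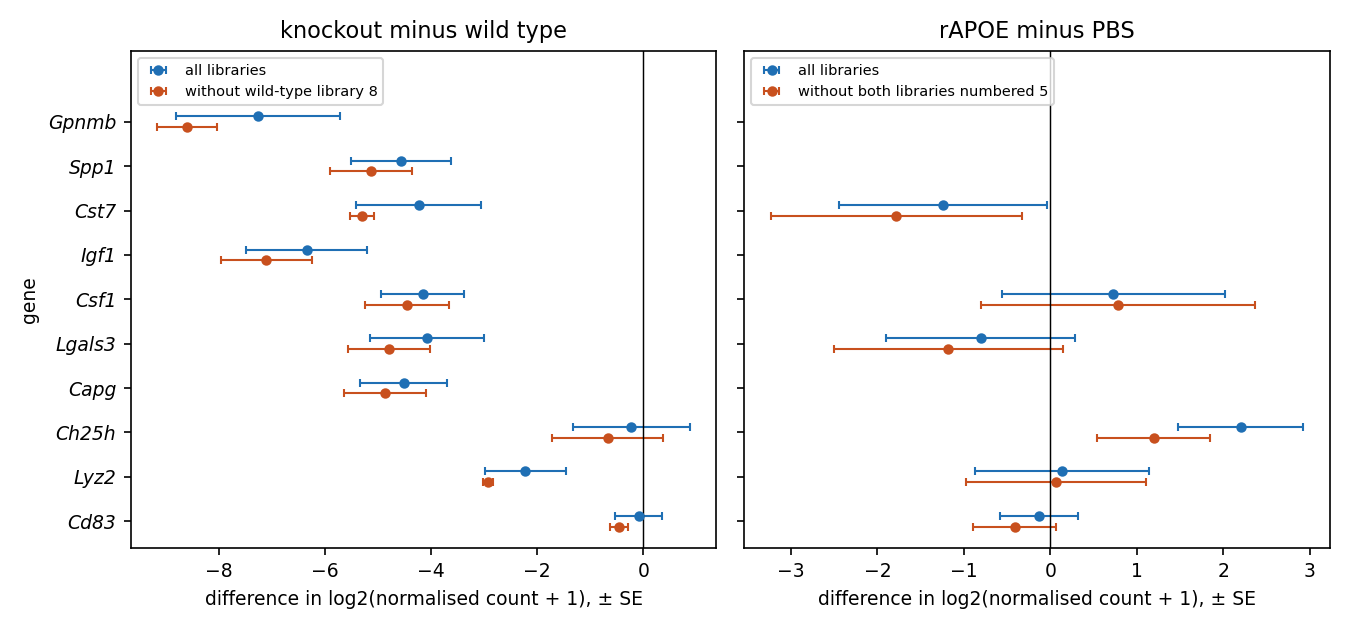
Difference in log2(normalised count + 1) per member, knockout minus wild type at left and rAPOE minus PBS at right, with all libraries and without the libraries that stand apart; bars are ± SE of the limma fit. At left 8 members lie between −2.23 and −7.26 with all libraries and further from 0 without wild-type library 8; at right the 6 members tested lie on both sides of 0, with Ch25h highest at 2.20.

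Cd83 and Ch25h did not pass. Cd83, a surface immunoglobulin protein of activated myeloid cells, was at 265, 279, 282, 357, 317 and 338 in wild-type libraries other than 8, at 48.7 in library 8, and at 267, 170, 191 and 278 in the knockout. The groups overlapped, and the difference was −0.08 (SE 0.44, limma adjusted p = 0.904). Without library 8 it was −0.46 (SE 0.16, limma adjusted p = 0.0504), and the exact two-sided permutation p was 0.0190 over 210 splits (without adjustment). Thus Cd83 differed by 1.35-fold in the means where Gpnmb differed by 365-fold.

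Ch25h makes a hydroxylated cholesterol that restrains cholesterol synthesis and virus entry. It was close to the floor in wild type, at 4.62, 9.66, 4.80, 15.1, 6.90 and 9.18 in the libraries other than 8 and at 0 in library 8. The knockout libraries held 0, 0, 54.0 and 15.5, so that 2 of them were at 0 and the other 2 were above every wild-type library. The difference was −0.23 (SE 1.10, limma adjusted p = 0.898) and changed sign in other settings, to 1.26 in edgeR and 1.28 in DESeq2 (adjusted p = 0.590 in both), and to 1.12 under quantile rescaling. Gpr183, the receptor of an oxysterol made from the product of Ch25h, was at 327 and 241 and did not pass (−0.27, limma adjusted p = 0.592). Its wild-type mean was raised by library 8, which lay above every other wild-type library. The knockout mean lay within the range of those other libraries. Cyp7b1, the enzyme between Ch25h and Gpr183, was below the mean of 10 set as the filter, at 0 to 11.5 in wild type and 0 to 17.3 in the knockout.

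The list of other disease-associated microglia genes held 36 tested genes, of which 13 were lower and 0 higher (median −0.84). Over all genes, 19.8% were lower and 5.14% higher. Without library 8 there were 29 lower and 2 higher in the list, against 2378 and 791 of 10352 genes. Trem2, Tyrobp and Cd9 did not fall. Without library 8 their means were 2360, 1763 and 933 in wild type and 2422, 1848 and 1189 in the knockout, and the groups overlapped. The genes named next are the 5 with the lowest adjusted p. The lipid enzyme Lpl, which releases fatty acids from lipoproteins, went from 1265 in wild type to 55.9 (−4.28, SE 0.80, limma adjusted p = 0.00133). The fatty acid carriers Fabp3 and Fabp5 fell from 119 to 0 and from 88.0 to 2.70. The membrane pyrophosphate transporter Ank fell from 777 to 79.7 and the Wnt inhibitor Dkk2 from 47.4 to 0. Of 33 tested receptors, enzymes and relatives of the members, 12 were lower and 3 higher, or 12 and 7 without library 8.

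Markers of several other cell types were also lower in the knockout, and some of them, but not all, were near knockout values in library 8. The counts below stand beside 19.8% of all genes lower and 5.14% higher. Serosal macrophage markers summed to 3789 to 4976 in wild-type libraries other than 8, to 101 in library 8 and to 57.1 to 187 in the knockout, with 12 of 13 tested markers lower. Its defining genes Gata6 (10.2 to 22.9) and Alox15 (458 to 670) were read in the 6 other wild-type libraries and were at 0 in library 8 and in all 4 knockout libraries. Monocyte markers, which share Fn1 with that list, summed to 2064 to 2509, 144 and 45.0 to 402 (10 of 16 lower), although the defining Ly6c2 and Ccr2 were low in both groups, at means of 9.24 and 21.6 in wild type and 12.3 and 10.3 in the knockout. Choroid plexus markers summed to 58179 to 84564, 24205 and 450 to 910 (10 of 10 lower), so that library 8 stayed far above the knockout. Border macrophage markers summed to 1158 to 1299, 966 and 685 to 908 (4 of 11 lower and 1 higher). Dendritic cell markers summed to 2129 to 2328, 3351 and 2425 to 3522 (2 of 4 higher and 0 lower). Neuron markers summed to 913 to 1205, 72.2 and 0 to 79.1 (8 of 10 lower), and astrocyte markers to 3677 to 4056, 2064 and 708 to 1236 (10 of 11 lower). Oligodendrocyte markers summed to 593 to 672, 204 and 92.5 to 282 (3 of 6 lower). Endothelial and pericyte markers summed to 421 to 539, 291 and 201 to 397 (2 of 8 lower). Resting microglia markers summed to 140384 to 149545, 166799 and 181664 to 203657, with 12 of 25 higher and 1 lower. Neutrophil markers did not follow the members in the knockout, at 2293 to 3016, 370 and 1792 to 6449, with 1 of 10 lower and 0 higher; S100a8 was at 996 to 1382, 79.4 and 921 to 3167. The members' own sum was 7003 to 9314, 309 and 861 to 1057. The number of genes detected moved with the members between the groups as well, at 8117 to 10479 in the knockout and 14291 to 15248 in wild-type libraries other than 8, but library 8, with the members low, detected 13592. The part of other cells and of the number of genes detected in the members' values was not tested.

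**Figure D3:**
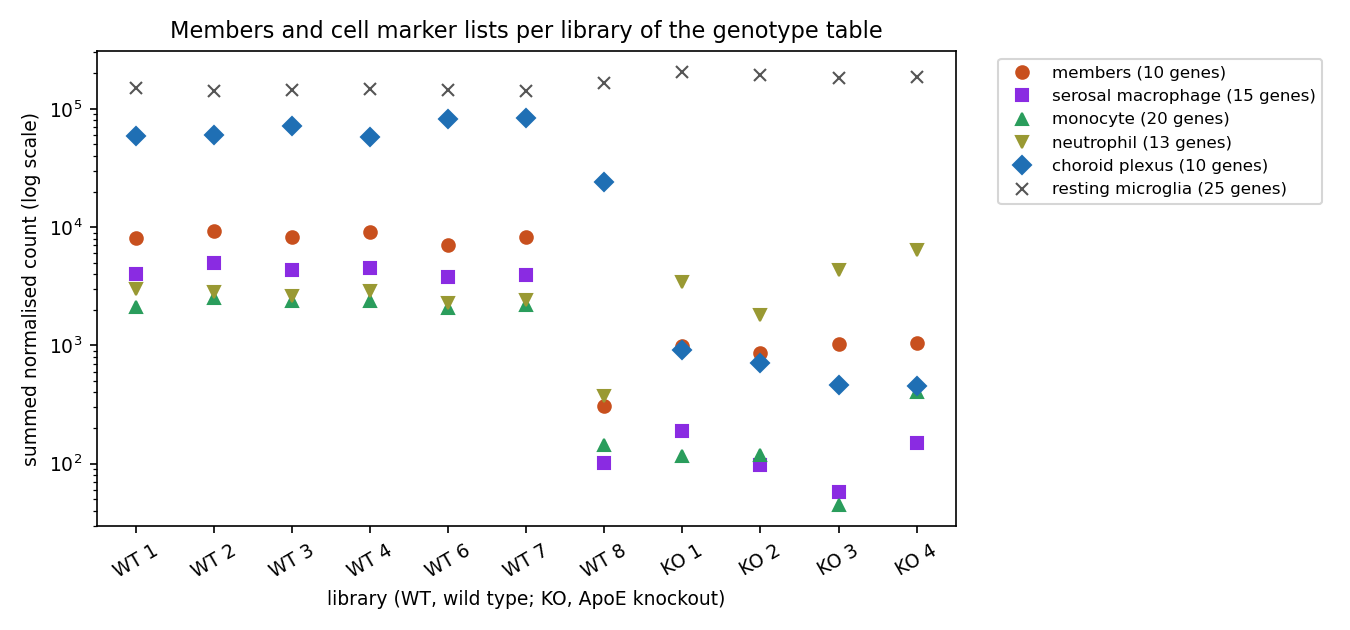
Summed normalised count (vertical axis, log scale) of the members and of 5 marker lists in each library of the genotype table; a point is a library's sum over the genes named in the key. In library WT 8 the members and the serosal macrophage, monocyte and neutrophil sums are all far below the other wild-type libraries, while resting microglia markers are not lower.

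The genes whose values followed the members' mean most closely were found by Pearson's r over the 11 genotype libraries, which share 2 groups and library 8, so this is a description. They were H2-Aa (r = 0.991), a chain of the class II antigen presenter, Gm11942 (0.986), Saa3 (0.985), an acute-phase protein, the beta-glucan receptor Clec7a (0.985), AU020206 (0.980) and Lyz1 (0.979). H2-Aa was at 354 to 546 in wild-type libraries other than 8, at 28.9 in library 8 and at 32.4 to 66.9 in the knockout. Saa3 was at 1027 to 1482, 0 and 0 to 4.43, and Clec7a at 482 to 760, 7.22 and 20.7 to 36.8. Of these, Saa3 is in the serosal macrophage list and Clec7a in the list of other disease-associated microglia genes. Among the 45 pairs of members, the median r was 0.78 over all 11 libraries and 0.24 over the 6 wild-type libraries other than 8.

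In the injection comparison, none of the 6 members tested passed by limma or edgeR, nor any of the 4 for which DESeq2 gave an adjusted p (it gave none for Cst7 and Csf1), against 0.481% of 7066 genes by limma, 0.340% by edgeR and 1.63% by DESeq2. Without both libraries numbered 5, none passed by limma, against 0.157% of all genes. The other 4, Gpnmb, Spp1, Igf1 and Capg, were below the mean of 10. At an unadjusted p under 0.05, 1 of 6 members (Ch25h) was counted, against 11.2% of all genes. The members' median difference was 0.0037, against −0.013 over all genes, and PBS and rAPOE libraries overlapped for all 10 members (1.54% of all genes lay apart as lower and 1.59% as higher).

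**Figure D4:**
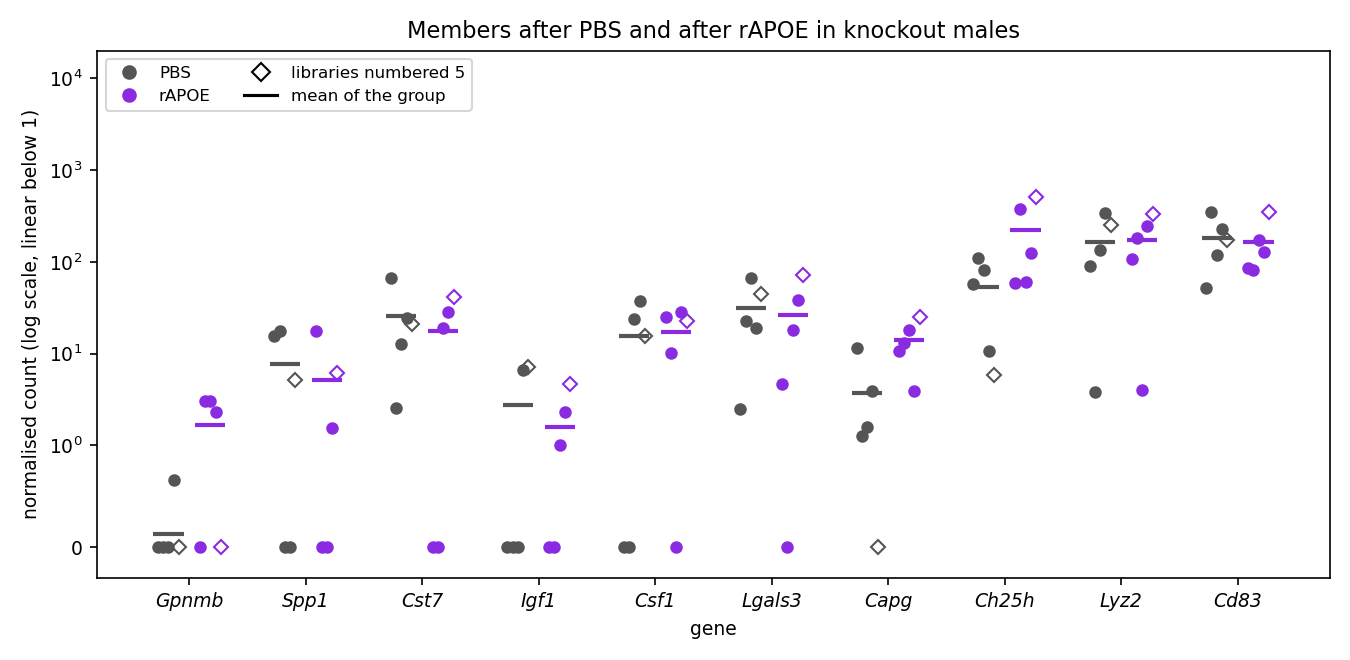
Normalised count (vertical axis, log scale and linear below 1) of each member in 5 PBS and 5 rAPOE libraries; a point is a library, a bar is the mean of its group, and open diamonds are the libraries numbered 5. PBS and rAPOE points overlap for every member, and the 5 rAPOE points of Ch25h run from 58.9 to 504.

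Ch25h had the largest difference among the 6. It was at 57.1, 111, 81.6, 10.5 and 5.79 after PBS and at 58.9, 374, 60.2, 124 and 504 after rAPOE. The means were 53.3 ± 45.4 (SD, n = 5) and 224 ± 203 (SD, n = 5), 4.21-fold higher after rAPOE, and rAPOE libraries 2, 4 and 5 were above all PBS libraries while 1 and 3 were within their range. The log2 difference was 2.20 (SE 0.72, limma adjusted p = 0.225; exact two-sided permutation p = 0.0873 over 252 splits). Without both libraries numbered 5 it was 1.20 (SE 0.65, limma adjusted p = 0.614). Gpr183 was at 314 after PBS and 270 after rAPOE (−0.24, SE 0.28, limma adjusted p = 0.798).

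Capg was low, at 11.6, 1.26, 1.60, 3.95 and 0 after PBS and at 10.6, 13.1, 18.1, 3.88 and 24.9 after rAPOE, from 22 and 77 reads in all. Below the mean of 10, it has no adjusted p over all genes in the main test; its exact two-sided permutation p was 0.0397 over 252 splits, without adjustment, and 0.143 over 70 splits without both libraries numbered 5. The other members with few reads were Gpnmb, with 1 read after PBS and 9 after rAPOE, Igf1, with 21 and 10, and Spp1, with 41 and 25. With no filter on low values they did not pass (limma adjusted p = 0.686, 0.984 and 0.955 for Gpnmb, Igf1 and Spp1), and so few reads leave small differences in them out of reach.

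Lyz2 ranged from 3.79 to 343 after PBS and from 4.01 to 333 after rAPOE, and Cst7 from 2.53 to 66.2 and from 0 to 41.2. These spreads exceed the differences between the means, and neither passed (Lyz2 0.13, SE 1.003, limma adjusted p = 0.976; Cst7 −1.24, SE 1.20, limma adjusted p = 0.752). Lgals3 (−0.81, SE 1.09), Csf1 (0.73, SE 1.29) and Cd83 (−0.13, SE 0.45) did not pass either, at limma adjusted p-values of 0.827, 0.874 and 0.950. Csf1r was at 3047 after PBS and 2070 after rAPOE (−0.56, SE 0.23, limma adjusted p = 0.371).

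Among the 30 tested genes of the other disease-associated list, 1 was higher and 0 lower after rAPOE: Cd52, a small glycoprotein of leukocytes, rose to 286 from 103 after PBS (1.47, SE 0.32, limma adjusted p = 0.0384). Among the 22 tested receptors, enzymes and relatives, Igfbp4, which binds insulin-like growth factors, rose from 57.3 to 180 (1.65, SE 0.32, limma adjusted p = 0.0143), and Itgb5, an integrin chain of osteopontin receptors, fell from 568.2 to 259 (−1.22, SE 0.27, limma adjusted p = 0.0404). Without both libraries numbered 5, none of the genes in these lists passed (limma). Resting microglia markers summed to 55588 to 62791 after PBS and 29607 to 51699 after rAPOE, and monocyte markers to 49.6 to 139 and 273 to 571. The monocyte sums do not show a rise of the whole list. Of the 15 monocyte markers in the injection table, only 2 were tested, and 1 was higher after rAPOE (limma). Monocyte markers with reads numbered 3 to 7 in the PBS libraries and 2 to 14 in the rAPOE libraries. In rAPOE library 3 the sum of 273 came from 2 genes. Serosal macrophage markers, a list that shares Fn1 with the monocyte list, summed to 19.0 to 60.4 after PBS and 79.3 to 438 after rAPOE. Only 5 of its 15 genes were in the injection table, and 1 of 2 tested was higher. Of 25 resting microglia markers, 4 passed as lower after rAPOE, and 0 without both libraries numbered 5 (limma). The part of resting microglia, monocyte and serosal macrophage markers in the members' values was not tested.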

How the data were processed

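Libraries were QuantSeq 3′ FWD, read on an Illumina MiniSeq, per the labels' protocols. The submitters' processing notes name GRCm38.p3 as genome build and R 3.2.3, Picard 1.8.4, DESeq2 and HTSeq as tools, without roles. For the aligner, annotation and strand setting, a name or version is not given in the sources used here. Values as deposited are a signal per gene, a read count divided by a library factor by the authors, and 100% of values above 0 were whole multiples of a step (within 0.01), from which reads were recovered. Of 18221 genotype entries, 22 carried dates for names (0.0966% of the summed values) and 120 were 0 throughout; 18079 were kept. No value columns were left out.

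Values were fitted as log2(value + 1) with limma 3.58.1 in R 4.3.3 (trend), keeping genes whose mean was at least 10, with Benjamini-Hochberg adjustment over all genes of a table and a threshold of 0.05. The scale understates changes of low genes. Alternatives were edgeR 4.0.16 and DESeq2 1.42.0 on recovered reads, other pseudocounts, filters and scalings, and leaving out libraries. Exact two-sided permutation tests are unadjusted. Coordinates come from GENCODE M21 (GRCm38). Members and lists were chosen with earlier results of these data known. Named genes are all members, up to 5 passing genes of each of the 2 related lists by adjusted p, the first 2 markers of a list, the 6 genes most like the members, and the direct partners; Ctsc was chosen after its values were seen. Counting error alone underlies the floors (3 reads). Reads carry no molecular identifiers.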

Additional observations from a re-analysis of the deposited data

Results flagged for a closer look

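A library lay far from the rest of its group for 11 of the 40 combinations of member and group, where chance flags about 1 in 20 groups of independent values; these combinations are not independent, since they share libraries. Of these, 8 were wild-type library 8, which was low: Gpnmb at 0, Spp1, Cst7 and Igf1 at 7.22 each, Lgals3 at 1.81, Capg at 16.2, Lyz2 at 164 and Cd83 at 48.7. Against the knockout values it was below for 3 members (Cst7, Lyz2 and Cd83), above for 2 (Csf1 and Capg) and within for 5. The other 3 were single nonzero values in groups otherwise at 0: Gpnmb at 7.38 and Igf1 at 31.8 in knockout library 1, and Gpnmb at 0.659, which is 1 read, in PBS library 4.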

How the results depend on the processing

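Of the 8 members that passed in the genotype comparison, 7 passed as lower under every alternative run: pseudocounts of 0.5 and 5, a mean of at least 50, no filter, TMM and quantile rescaling, edgeR, DESeq2, the replicate block and each left-out library. Lyz2 missed the threshold at a pseudocount of 0.5 (adjusted p = 0.0527), at a mean of at least 50 (adjusted p = 0.0546) and without any 1 library other than wild-type library 8. In the injection comparison, no member passed under any alternative that gave it an adjusted p (0 with limma, edgeR and DESeq2; 1 of 6 at an unadjusted p under 0.05 with limma). The genes passing in the genotype comparison, 2596, were 1289 at a mean of at least 50, 1658 in edgeR and 2007 to 3169 with 1 library left out. Those passing in the injection comparison, 34, were 64 at a pseudocount of 5, 115 in DESeq2, 11 without both libraries numbered 5 and 16 to 74 with 1 library left out (22, 20, 74 and 16 without rAPOE library 1, 2, 3 and 5). The cause was not tested.

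Replicate numbers are shared, but the labels do not say that they pair the libraries. Same-numbered libraries correlated, in their deviations from the group means, at −0.0295 to 0.0200 in the genotype table. In the injection table numbers 4 and 5 correlated at 0.185 and 0.112, and the other 3 at −0.00418 to 0.0208, so not every pair deviated together. With the replicate number as a block, 52 genes passed in the injection comparison (35 higher and 17 lower), 0 of them members, and 8 members passed in the genotype comparison.

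Some members that did not pass changed sign. For Ch25h in the genotype comparison the difference was 0.22 at a pseudocount of 5, 1.12 under quantile rescaling, 1.26 in edgeR, 1.28 in DESeq2, 1.05 in edgeR without library 8 (an alternative chosen after seeing the data) and −0.75 to 0.59 with 1 library left out. For Cd83 it was −0.46 to 0.042 with 1 library left out. After injection, Lyz2 was −0.0052 under quantile rescaling and −0.91 to 1.20 with 1 library left out, Cd83 −0.51 to 0.16, and Lgals3 −1.47 to 0.11.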

Other observations

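Values chosen after they were seen: wild-type library 8, which was low for the members, held Gpr183, an oxysterol receptor, at 876, above the range of 186 to 261 in the 6 others. After rAPOE, Clec7a was at 32.3 to 54.2 in the 5 libraries and at 7.72 to 17.6 in the 5 PBS libraries, without overlap, and Lpl at 66.0 to 459 and 17.7 to 121; neither passed with limma (Clec7a 1.73, SE 0.61, adjusted p = 0.280; Lpl 1.997, SE 0.57, adjusted p = 0.149). Groups did not overlap, with rAPOE higher, for 1.59% of the genes tested. Both genes are from the list of other disease-associated microglia genes and do not stand for it. The median difference of its 30 tested genes after rAPOE was −0.10, with 1 higher and 0 lower (limma). DESeq2 gave adjusted p-values of 0.0482 and 0.0164 for them, and limma without both libraries numbered 5 gave 0.576 and 0.398. In the genotype comparison both fell with the members.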
